A study of Sus scrofa with 2 samples.

Results

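Genes of the cochlear hair cell and of the organ of Corti were followed in RNA from the lateral wall of the pig cochlea, to see how much sensory epithelium each library held. The list had 35 genes, taken by symbol from the deposited table, and 27 of them had a row there, out of 27622 features in all. Of the 27, 24 were matched by the symbol of the table, 2 by the Ensembl pig name where the table gave no symbol (ESPN and LOXHD1), and 1 by an older symbol (WHRN, listed as DFNB31). OTOF, CDH23, TMIE, TRIOBP, GIPC3, CLRN1, PTPRQ and TPRN had no matching row and are not analysed here.

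The hair cell is the receptor of hearing. Its apical surface carries a bundle of actin-filled stereocilia, tip links made of CDH23 and PCDH15 join neighbouring stereocilia, and the pull on a tip link opens the transduction channel. The current through that channel is driven by the high potassium and the positive potential of the endolymph, which the stria vascularis (SV) of the lateral wall produces. Supporting cells surround the hair cells and secrete the proteins of the tectorial membrane, an extracellular gel that lies over the bundles. The SV and the sensory epithelium line different walls of the cochlear duct, so a lateral wall dissected free of other tissue holds no hair cells.

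An SV sample came from a pig heterozygous for the insertion allele r (Mitf R/r, called the heterozygous SV) and the other from a pig with that allele on both chromosomes (Mitf r/r, the homozygous SV), both of the Rongchang breed. The Mitf r/r pigs are albino and deaf, and no Mitf R/R library was compared. The sample labels give postnatal day 1 for both pigs, whereas the text of the study places the RNA-seq assay at an embryonic stage; the labels give neither sex nor litter. Values are RPKM, mapped reads divided by exon length and library depth, as the authors deposited them. The whole reads behind the values were worked out from the ratios of low RPKM values, which gave totals of 15829244 reads (heterozygous) and 14258672 reads (homozygous). A single read on 1 kb of exon was worth 0.0632 RPKM in the heterozygous SV and 0.0701 RPKM in the homozygous SV. With 1 library per genotype there is no replicate check and no test, and the values compare these libraries, not the genotypes. The 95% intervals cover counting error only. Fewer cells of a type and less RNA per cell cannot be told apart in bulk tissue.

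MITF, the gene mutated in these pigs, had 656 and 424 reads over its 3 features. The log2 ratio (homozygous over heterozygous) was -0.48 (95% interval -0.66 to -0.30). The study reports loss of only the melanocyte isoform, MITF-M, which values for the whole gene cannot separate. Its own count for the exon of that isoform was many times lower in the Mitf r/r SV. Markers of the labelled tissue were high in both libraries. KCNE1, the potassium channel subunit of strial marginal cells, had 278 RPKM in the heterozygous SV and 248 RPKM in the homozygous SV. COCH, a matrix protein of spiral ligament fibrocytes, had 6826 and 4914 RPKM. Melanocyte-like intermediate cell genes were the exception, as the summed RPKM of 7 of them was 265 in the heterozygous SV and 8.003 in the homozygous SV. DCT alone had 171 and 1.19 RPKM. The study reports that some markers of melanocytes or intermediate cells were still expressed in the Mitf r/r SV. Among them is KCNJ10, given there under an older name and also among the 7 genes summed here (20.01 and 5.97 RPKM). From such values and electron microscopy of prenatal SVs, the study places the loss of these cells around birth, after the embryo stage. Whether intermediate cells were fewer in the homozygous SV was not tested here.

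Genes that define hair cells were low in both libraries. Of 16 members listed as hair cell defining markers, 12 had a row, and their highest value in either library was 1.39 RPKM (STRC in the homozygous SV). Only MYO3A, PCDH15 and STRC reached 1 RPKM in the heterozygous SV, and only MYO3A and STRC did so in the homozygous SV. Over all features, 58% in the heterozygous SV and 57.6% in the homozygous SV reached 1 RPKM. The marker list was chosen with earlier results of these data known, and members used widely elsewhere were kept out of it. Its low level is therefore not independent of that choice. The 12 markers together had 279 reads in the heterozygous SV and 233 reads in the homozygous SV. The log2 ratio of their summed reads was -0.11 (95% interval -0.37 to 0.15), which spanned no change. The sum joins unlike members, as PCDH15 alone had a log2 ratio of -0.60 (-1.07 to -0.13) and STRC one of 0.22 (-0.19 to 0.63).

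**Figure D1:**
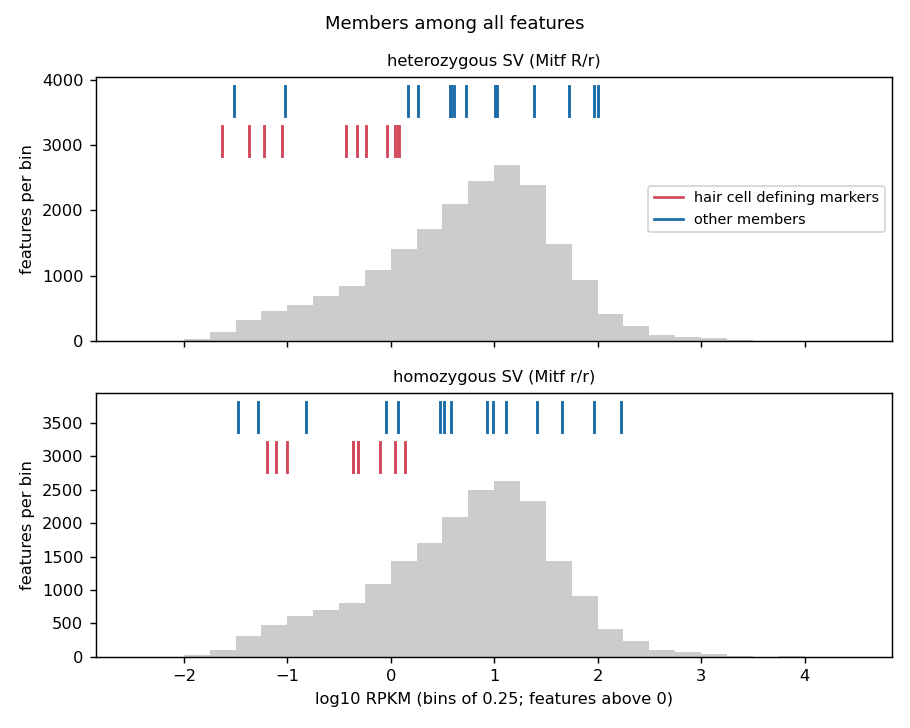
Number of features per bin of log10 RPKM (grey bars) in the heterozygous SV (upper panel) and the homozygous SV (lower panel), with the 12 hair cell defining markers (red ticks) and the other members (blue ticks) above them; genes at 0 are not drawn. The red ticks end near 1 RPKM, at 1.19 RPKM in the heterozygous SV and 1.39 RPKM in the homozygous SV, whereas the median of all features above 0 was 6.71 and 6.59 RPKM.

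The transcription factors that specify and maintain hair cells gave 9 reads in the heterozygous SV and 8 reads in the homozygous SV for the group of 3. POU4F3, required for hair cell survival, had 0.373 RPKM from 6 reads in the heterozygous SV and 0.483 RPKM from 7 reads in the homozygous SV. ATOH1, the factor that starts hair cell fate, had 0.0595 RPKM from 1 read in the heterozygous SV and was listed at 0 in the homozygous SV; 3 reads in that library, the limit a count of 0 sets, would be 0.198 RPKM. GFI1, which acts downstream of them and also in blood cells, had 0.0943 RPKM from 2 reads and 0.0523 RPKM from 1 read. No factor reached 1 RPKM in either library. POU4F3 stood below KCNE1 by 747 times in the heterozygous SV and 514 times in the homozygous SV on the RPKM scale.

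Of the transduction channel genes, 1 reached a substantial level and 3 stayed under 1 RPKM in both libraries. CIB2, a calcium-binding subunit of the channel complex that many other tissues also use, had 24.2 RPKM in the heterozygous SV and 26.0 RPKM in the homozygous SV. The pore subunit TMC1 had 0.472 RPKM from 17 reads and 0.431 RPKM from 14 reads, and TMC2, the pore subunit of immature hair cells, was listed at 0 in both SVs. LHFPL5, which couples the tip link to the channel, had 0.0896 and 0.0995 RPKM, from 1 read in each SV. CIB2 thus stood apart from the pore subunit it binds, with TMC1 at 0.0195 of the RPKM of CIB2 in the heterozygous SV and 0.0166 in the homozygous SV. The log2 ratio of CIB2 was 0.10 (-0.07 to 0.28).

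The tip link and its scaffold showed the same split. USH1C (harmonin), a PDZ scaffold known from gut and kidney epithelium as well as hair cells, had 53.4 RPKM in the heterozygous SV and 45.2 RPKM in the homozygous SV. With 2251 and 1716 reads, its log2 ratio was -0.24 (-0.33 to -0.15). Its partners in the hair cell were low. PCDH15, the lower part of the tip link, had 1.18 RPKM from 104 reads in the heterozygous SV and 0.784 RPKM from 62 reads in the homozygous SV, a log2 ratio of -0.60 (-1.07 to -0.13). USH1G, the SANS scaffold, was listed at 0 in the heterozygous SV, where 3 reads would be 0.410 RPKM. In the homozygous SV it had 0.152 RPKM from 1 read or a multiple of it, on a recovered length of only 462 bases. The limit of 0.410 RPKM rests on the same length.

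Among unconventional myosins, MYO6, the minus-end directed motor used in endocytosis by most epithelia, was the second highest member in both libraries. Its values were 92.3 RPKM (7894 reads) in the heterozygous SV and 91.4 RPKM (7041 reads) in the homozygous SV, with a log2 ratio of -0.01 (-0.06 to 0.03). MYO7A, the motor at the upper tip link density, which the retinal pigment epithelium also expresses, had 1.46 RPKM from 151 reads and 0.902 RPKM from 84 reads. Its log2 ratio of -0.70 (-1.10 to -0.30) was the lowest of the members compared. MYO3A, a motor of stereocilia tips, was level at 1.10 RPKM in both SVs, from 31 and 28 reads. The feature listed as MYO15A, the motor that elongates stereocilia, had 1 and 3 reads (0.0235 and 0.0781 RPKM). An Ensembl table used here names that feature MYO7B, so its identity is uncertain.

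Proteins of bundle actin, taper and surface links had 5 members with a row. WHRN (whirlin), a scaffold of stereocilia that neurons and photoreceptors also use, had 10.1 RPKM in the heterozygous SV and 12.96 RPKM in the homozygous SV. These came from 40 and 46 reads or a multiple of them, on a recovered length of only 249 bases. STRC (stereocilin), which forms the links between outer hair cell stereocilia and their attachment to the tectorial membrane, had 1.19 RPKM from 100 reads and 1.39 RPKM from 105 reads. GRXCR1, a glutaredoxin-like protein of stereocilia, had 0.579 RPKM in the heterozygous SV and 0.482 RPKM in the homozygous SV. ESPN (espin), the actin bundler of stereocilia, had 1 read in each SV, and LOXHD1, a protein of the stereocilia membrane, had 3 and 4 reads. The 95% interval of the log2 ratio spanned no change in all 5 genes, though that of WHRN would be narrower if its true reads were a multiple. At the synapse and the cell junction, CABP2, a calcium sensor of hair cell calcium channels, had 0.917 RPKM from 7 reads in the heterozygous SV and 0.437 RPKM from 3 reads in the homozygous SV. ILDR1, a protein of tricellular tight junctions in many epithelia, had 3.74 RPKM and 3.85 RPKM.

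**Figure D2:**
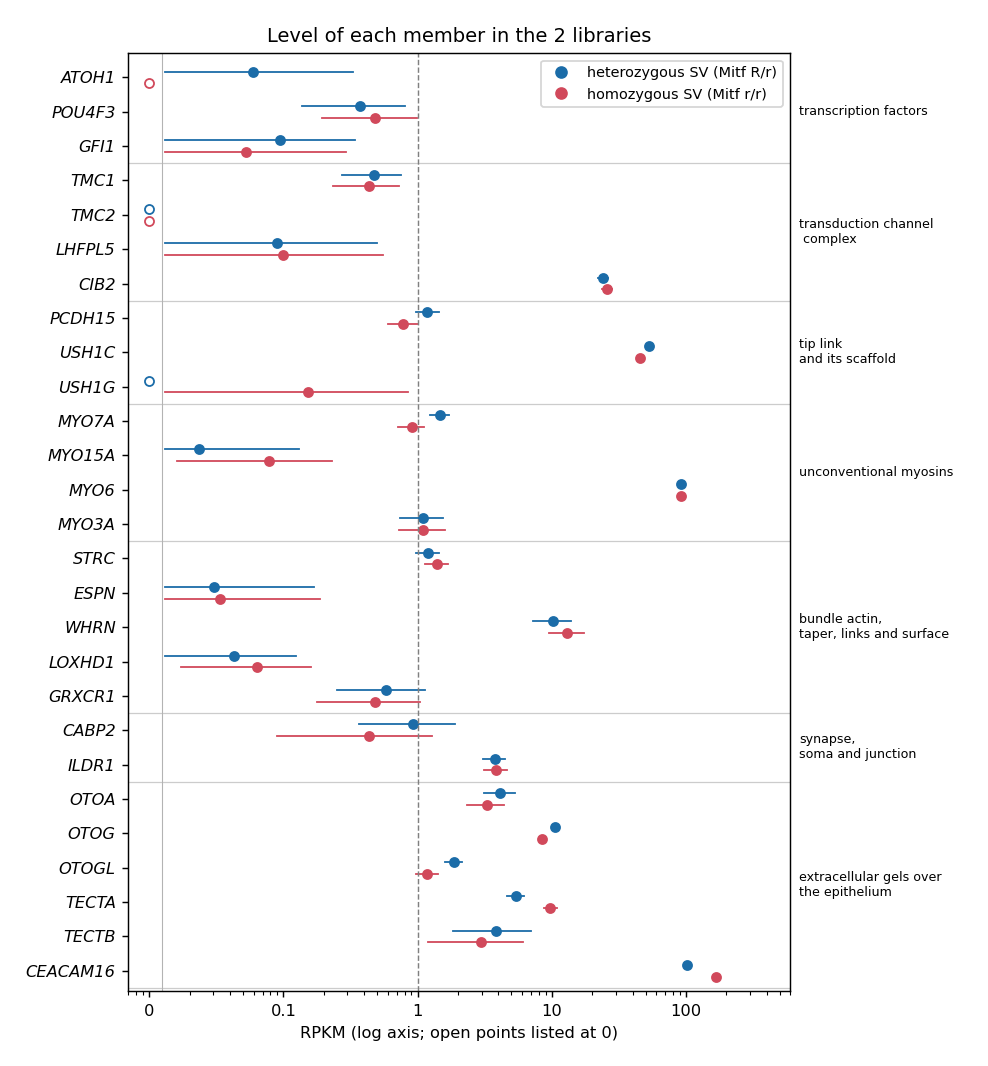
RPKM of the 27 members with a row (log axis), grouped by role, in the heterozygous SV (blue) and the homozygous SV (red); lines are 95% Poisson intervals on the reads (drawn only as far as the grey vertical line, left of which the axis is broken), open points are genes listed at 0, and the dashed line is 1 RPKM. CEACAM16, MYO6, USH1C, CIB2 and WHRN stand above 10 RPKM in both libraries, whereas the transcription factors lie under 0.5 RPKM.

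The genes that did reach substantial levels were few. Over the 27 members, 14803 reads were found in the heterozygous SV and 13641 reads in the homozygous SV, 0.0935% and 0.0957% of the totals. MYO6, CEACAM16 and USH1C held 79.3% of the member reads in the heterozygous SV and 81.5% in the homozygous SV. Of the 5 members at 10 RPKM or more in both SVs, MYO6, USH1C, CIB2 and WHRN are among 10 members listed as used widely outside the inner ear, and CEACAM16 is the remaining one. The rest of that list with a row lay below 10 RPKM in both SVs. These were MYO7A (1.46 and 0.902 RPKM), ILDR1 (3.74 and 3.85 RPKM), GFI1 (0.0943 and 0.0523 RPKM) and ESPN (0.0303 and 0.0336 RPKM). That list too was chosen with earlier results of these data known. In all, 15 of 27 members (55.6%) reached 1 RPKM in the heterozygous SV and 13 (48.1%) in the homozygous SV, close to the 58% and 57.6% of all features.

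Proteins of the gels over the sensory epithelium were present throughout, with all 6 members at 1 RPKM or more in both libraries. CEACAM16, a secreted protein of the tectorial membrane, was the highest of all members, with 102 RPKM (1596 reads) in the heterozygous SV and 167 RPKM (2354 reads) in the homozygous SV. Its log2 ratio was 0.71 (0.62 to 0.80). TECTA (alpha-tectorin), the main non-collagen protein of that membrane, had 5.38 RPKM from 184 reads and 9.78 RPKM from 301 reads, a log2 ratio of 0.86 (0.59 to 1.13). Both were higher in the homozygous SV, and CEACAM16 had 18.9 times the RPKM of TECTA in the heterozygous SV and 17.1 times in the homozygous SV.

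The other 4 gel genes were lower in the homozygous SV. OTOG (otogelin), a mucin-like protein of the tectorial membrane and the vestibular gels, had 10.6 RPKM (1473 reads) in the heterozygous SV and 8.48 RPKM (1063 reads) in the homozygous SV. Its log2 ratio was -0.32 (-0.44 to -0.21). OTOGL, its relative, had 1.85 and 1.18 RPKM, a log2 ratio of -0.65 (-0.998 to -0.32). OTOA (otoancorin), which attaches the gel to the non-sensory cells of the spiral limbus, had 4.13 RPKM from 59 reads and 3.26 RPKM from 42 reads. TECTB (beta-tectorin) had 3.83 RPKM in the heterozygous SV and 2.98 RPKM in the homozygous SV, from 10 and 7 reads or a multiple of them. The intervals of OTOA (-0.95 to 0.26) and TECTB (-1.99 to 1.18) spanned no change. The intervals of CEACAM16 and TECTA lay wholly above 0 and those of OTOG and OTOGL wholly below 0, so the gel genes did not move as a group. Their summed RPKM was 128 in the heterozygous SV and 193 in the homozygous SV, but 25.8 and 25.7 without CEACAM16.

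The value of TECTA has a limit in the annotation. The table lists a neighbouring feature as TBCEL, with 15.9 and 18.0 RPKM, and the Ensembl table names that feature TECTA. When the reads of both features were added, there were 1425 reads in the heterozygous SV and 1573 reads in the homozygous SV, and the log2 ratio became 0.29 (0.19 to 0.40). The direction was the same and the size was smaller. The ratios of CEACAM16 to TECTA, 18.9 and 17.1, rest only on the feature listed as TECTA, the lower of these features.

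Ratios were compared for the 15 members above 0 in both SVs whose larger value reached 1 RPKM. Among these, 0 differed 2-fold, where 3.99% of 16331 genes at the same minimum did. The members had 7 higher and 8 lower values in the homozygous SV, and a median log2 ratio of -0.01 against -0.02 for all genes compared. The interval lay above 0 in 2 members, TECTA and CEACAM16, against 10.9% of all genes. It lay below 0 in 5 members, MYO7A, OTOGL, PCDH15, OTOG and USH1C, against 13.9% of all genes. The other 8 intervals spanned no change. At 1.5-fold, 5 of the 15 members were apart, against 10.8% of all genes, with 3 lower (6.31% of all genes) and 2 higher (4.53%). With no minimum value, 2 of 24 members were 2-fold apart, MYO15A and CABP2, from 10 reads or fewer in each library, against 7.67% of 19347 genes. Which intervals leave 0 follows the depth as well as the size of a difference, as USH1C with 2251 and 1716 reads and MYO3A with 31 and 28 reads show.

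**Figure D3:**
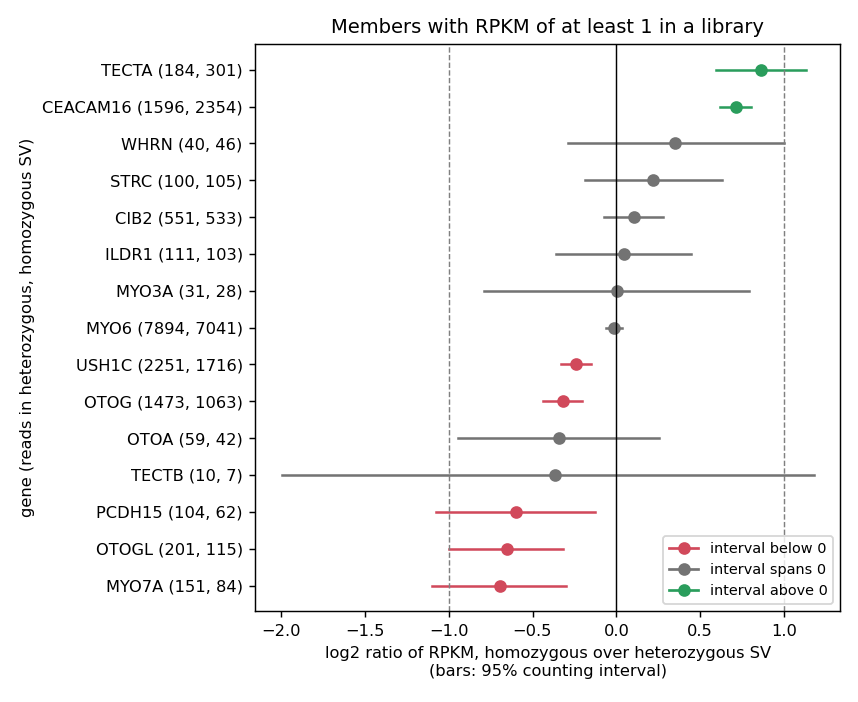
Log2 ratio of RPKM (homozygous over heterozygous) of the 15 members past the minimum, with 95% Clopper-Pearson intervals on the reads, ordered by value; the numbers beside a gene are its reads in the heterozygous and homozygous SVs, and dashed lines mark 2-fold. The points run from -0.70 (MYO7A) to 0.86 (TECTA), and none lies beyond 2-fold.

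Hair cell genes outside the member list ranged widely in level. Of 24 such genes, 19 had a row. EPS8, STRIP2 and TMPRSS3 were the highest, and 8 genes in the heterozygous SV and 9 in the homozygous SV reached 1 RPKM. EPS8, an actin regulator of many cells, had 36.8 and 38.0 RPKM, STRIP2 had 24.2 and 27.7 RPKM, and the protease TMPRSS3 had 18.8 and 19.8 RPKM. FSCN2, an actin bundler of hair cells and photoreceptors, had 3.76 RPKM from 100 reads and 3.97 RPKM from 95 reads. The outer hair cell motor SLC26A5 (prestin) had 0.710 and 0.473 RPKM, and the inner hair cell glutamate transporter SLC17A8 had 0.278 RPKM from 1 read in the heterozygous SV and was listed at 0 in the homozygous SV. Among the 9 genes past the minimum, the lowest log2 ratio was that of EPS8L2 (-0.22, -0.58 to 0.14) and the highest that of ADGRV1 (1.35, 0.23 to 2.59), the ankle link receptor, from 10 and 23 reads. ADGRV1 was the 1 gene among these 9 at least 2-fold apart. Below the minimum, CHRNA9, a subunit of the acetylcholine receptor of outer hair cells, had 0.863 RPKM from 22 reads in the heterozygous SV and 0.218 RPKM from 5 reads in the homozygous SV. Its log2 ratio was -1.99 (-3.74 to -0.55). XIRP2 and TOMT were listed at 0 in the homozygous SV, and BARHL1 in the heterozygous SV.

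Genes of supporting cells and the cochlear floor ranged from genes listed at 0 to 2234 RPKM. Of 20 genes, 16 had a row, and 13 in the heterozygous SV and 14 in the homozygous SV reached 1 RPKM. EPYC (epiphycan), a small proteoglycan of the cochlear floor, had 1676 RPKM in the heterozygous SV and 2234 RPKM in the homozygous SV. Its log2 ratio was 0.41 (0.37 to 0.46). S100A1 had 1043 and 1218 RPKM, and the glutamate transporter SLC1A3 had 71.5 and 129 RPKM, a log2 ratio of 0.86 (0.31 to 1.42), the highest of this list. The recovered reads of SLC1A3, 46 and 75, gave no whole length, so its interval may be too wide. SOX2, the factor of sensory progenitors and supporting cells, had the lowest log2 ratio, -0.80 (-1.77 to 0.11), with 1.49 and 0.851 RPKM. PROX1, another factor of supporting cells, had 1.65 and 1.052 RPKM, and the receptor LGR5 had 0.635 and 1.08 RPKM. FGF20 was listed at 0 in both SVs. SOX2, PROX1 and LGR5 thus lay near the levels of PCDH15 and STRC among the hair cell defining markers, but the list as a whole did not. The median of the 16 genes was 18.3 RPKM in the heterozygous SV and 18.9 RPKM in the homozygous SV. Several of these genes, such as S100A1, SLC1A3 and GATA3, are also expressed by other cells of the cochlea. Their summed RPKM was 503 times that of the hair cell defining markers in the heterozygous SV and 716 times in the homozygous SV. EPYC and S100A1 held 89.6% and 90.2% of that sum, and without them the ratios were 52.3 and 69.9. These ratios set unlike lists side by side. Genes used widely elsewhere were kept out of the hair cell defining markers but not out of this list. OC90 (38.1 and 26.1 RPKM) is in this list and also in that of vestibular tissue and Reissner's membrane.

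Other tissue next to the epithelium was also looked for. Of 12 spiral ganglion neuron genes, 11 had a row and 2 reached 1 RPKM in each SV, GAP43 (7.29 and 3.19 RPKM) and STMN2 (2.60 and 1.41 RPKM). The log2 ratio was -1.19 for GAP43 (95% interval -1.88 to -0.54) and -0.88 for STMN2 (95% interval -1.63 to -0.16). PRPH, which came next, had 0.931 and 0.989 RPKM. The neurofilament gene NEFL, below the minimum, went the other way, with 3 reads in the heterozygous SV and 35 reads in the homozygous SV (0.0512 and 0.663 RPKM), a log2 ratio of 3.70 (2.03 to 6.04). NEFH was listed at 0 in both SVs, and ELAVL3 in the heterozygous SV. Of 6 genes of vestibular tissue and Reissner's membrane, 3 reached 1 RPKM in each SV, OC90 (38.1 and 26.1 RPKM), VMO1 (24.6 and 29.0 RPKM) and OTX2 (5.19 and 4.94 RPKM). Their log2 ratios ran from -0.55 (OC90) to 0.24 (VMO1), and OTOP1 was listed at 0 in the homozygous SV. The part of these tissues in the values of the gel genes was not tested.

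The hair cell defining markers were then set against the markers of the dissected tissue. The summed RPKM of the 12 hair cell defining markers was 6.03 in the heterozygous SV and 5.34 in the homozygous SV. This was 0.380% and 0.458% of the sum over 5 marginal cell genes (1586 and 1168 RPKM), among which ATP1B2 had 915 and 522 RPKM and SLC12A2 had 312 and 334 RPKM. It was 0.0759% and 0.0896% of the sum over 5 genes of basal cells and fibrocytes (7945 and 5967 RPKM), of which COCH, CLDN11 (840 and 706 RPKM) and TBX18 (172 and 205 RPKM) were the highest. Each of these sums leans on its highest gene. Without ATP1B2 the marginal cell sum was 671 and 646 RPKM, and without COCH the other sum was 1119 and 1053 RPKM. The higher percentages in the homozygous SV rested on ATP1B2 and COCH. The log2 ratio was lowest for ATP1B2 (-0.81) and highest for SLC12A2 (0.10) in the marginal cell list, and lowest for COCH (-0.47) and highest for EMILIN2 (0.77) in the list for basal cells and fibrocytes. Against the 7 intermediate cell genes, the markers stood at 2.27% in the heterozygous SV and 66.8% in the homozygous SV. This last change came from the intermediate cell genes, all 6 of which past the minimum were at least 2-fold lower in the homozygous SV, from -10.64 for TRPM1 (1 read in the homozygous SV) to -1.75 for KCNJ10. DCT (171 and 1.19 RPKM), KCNJ10 (20.01 and 5.97 RPKM) and TRPM1 (22.7 and 0.0142 RPKM) were the highest there, and MLANA was listed at 0 in the homozygous SV. No library of pure sensory epithelium was compared, so these percentages are ratios of summed RPKM and not shares of cells.

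**Figure D4:**
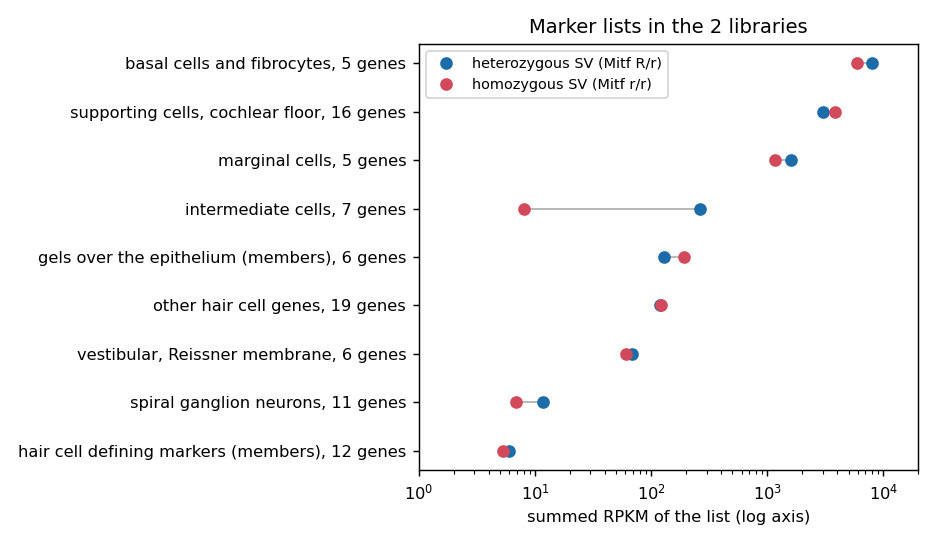
Summed RPKM (log axis) of each marker list in the heterozygous SV (blue) and the homozygous SV (red), with the number of genes that had a row; a grey line joins the libraries. The hair cell defining markers are lowest in both, at 6.03 and 5.34 RPKM, and the intermediate cell list is the one that moved far, from 265 to 8.003 RPKM.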

How the data were processed

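RNA of the cochlear lateral wall with its SV was sequenced by the authors as 100-bp paired-end reads from 1 Mitf R/r and 1 Mitf r/r pig. Per the labels, reads were aligned to Sscrofa10.2 with TopHat2 (2.0.7), and the authors deposited 1 table of RPKM values. The counting program and the annotation are not given in the sources used here. A further 2 columns, which carry no heading and are filled for 22 genes, were left out.

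The log2 ratio, homozygous over heterozygous, was taken with no pseudocount. It was taken where both values were above 0 and the larger reached 1 RPKM, and 2-fold was the threshold of the study. With 1 library per genotype no test was run. Whole reads were recovered as follows. The commonest ratio of low values, 1.11, was taken as that of equal reads. Library totals were those giving whole-number gene lengths, which held for 68.3% of 3000 features. Each gene then received the smallest reads that give both values and, with multiples up to 12 tried, a whole length. Where no such multiple gave a whole length, as for SLC1A3, the smallest reads were kept. True reads may be a common multiple of these, which would narrow the intervals. Intervals are exact (Clopper-Pearson for ratios, Poisson for levels) at 95%, and a count of 0 was given a limit of 3 reads. The steps were also run on data simulated from the recovered reads with every gene length whole. Real features did not all have a whole length, so that run does not check the recovery for the others.

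A symbol with several features was represented by the feature of greatest mean RPKM. The members and gene lists were chosen with earlier results of these data known; 1 gene of the neuron list is not reported here and was left out of its counts and sums. All members were accounted for; of other lists, the 3 highest genes by mean RPKM, the lowest and highest log2 ratio past the minimum and genes at 0 were named, and in the text a few more (SLC26A5, FSCN2, CHRNA9, PROX1, LGR5, NEFL, GATA3, TBCEL) that were chosen after their values were seen. Alternatives were pseudocounts of 0.1 and 1, other minimums, scalings, fold and expression thresholds and summed features. Sums without MYO15A or without EPYC and S100A1, and reads of TECTA with TBCEL were added after seeing the data. Scripts ran under Python 3.11.15 (scipy 1.17.1, numpy 2.4.6, matplotlib 3.10.9, pandas 2.3.3).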

Additional observations from a re-analysis of the deposited data

How the results depend on the processing

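No paired analysis was possible because each genotype had a single library. Members at least 2-fold apart numbered 0, and 0 under pseudocounts of 0.1 and 1, a minimum of 5 RPKM, the 3 scalings and a 4-fold threshold. They numbered 2 with no minimum (MYO15A, with 1 and 3 reads, and CABP2, with 7 and 3 reads) and 5 at 1.5-fold, both by construction. Members called expressed numbered 15 (heterozygous) and 13 (homozygous). They became 7 and 7 at 5 RPKM, and 20 in the homozygous SV at 0.1 RPKM, also by construction. The sum of the hair cell defining markers, 6.03 and 5.34 RPKM, became 10.04 and 8.69 as TPM, and 4.84 and 3.96 without STRC, its highest gene. Without MYO15A it was 6.003 and 5.27. The median log2 ratio ran from -0.13 (summed features) to 0.10 (minimum of 5 RPKM), around a value of -0.01. Of 75 values of 15 single members under pseudocounts and scalings, 75 stayed within their intervals. Scaling by the median, the upper quartile or TPM removed -0.02, -0.01 and 0.04 from all genes. Of the members, 12 had under 20 recovered reads over both libraries, and no interval of theirs lay wholly on one side of 0. Recovered reads are the smallest that give the values, so for TECTB, whose recovered length is only 165 bases, depth is not established as the limit. The same holds for WHRN, at 249 bases, and for USH1G, at 462 bases.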
